A study of Mus musculus with 16 samples.

Results

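The acyl-CoA thioesterase genes Acot1, Acot2, Acot3, Acot4, Acot7, Acot12 and Acot13 were followed in mouse liver. On fasting 5 of the 7 rose in both vanin-1 knockout and wild type mice, as did 2.05% of all genes by the same test. The 7 genes were chosen by name, with earlier results of these data known. Each was read from the probe set that carries its symbol alone, with the highest mean over the 16 arrays where a gene had more than 1. All 7 were measured, among 18820 genes in all. The livers came from male mice aged 14 to 16 weeks and formed 4 groups of 4 arrays: vanin-1 knockout mice fasted for 24 h (fasted KO), wild type mice fasted for 24 h (fasted WT), vanin-1 knockout mice under normal feeding (fed KO) and wild type mice under normal feeding (fed WT). The labels give C57Bl/6J as the strain background of all 4 groups, a standard chow diet and individual housing. The title of the series names PPARα, the nuclear receptor that switches on fatty acid oxidation genes in fasting liver, as the regulator of vanin-1. Vanin-1, the product of Vnn1, is an enzyme that frees pantothenate, the vitamin part of coenzyme A, from pantetheine. The treatment text is the same for every sample and describes the fast, so the feeding state was taken from each sample's own label. The labels do not state that every array came from a separate animal, so the spread behind each p-value is that between samples and may be technical.

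Acyl-CoA thioesterases split an acyl-CoA into the free fatty acid or other acid and free coenzyme A. In this way they act against the acyl-CoA synthetases, which load fatty acids onto coenzyme A, and set how much of a cell's coenzyme A is bound. Acot1 to Acot6 belong to a type with an alpha/beta hydrolase fold and are near copies of each other placed in a row, sent to different compartments: Acot1 works in the cytosol, Acot2 in mitochondria and Acot3 and Acot4 in peroxisomes. Acot7, Acot12 and Acot13 belong to a second type with a hotdog fold. In rodent liver several genes of the first type are known PPARα targets that respond to fasting and to fibrate drugs.

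Acot1, Acot2, Acot3 and Acot4 lie next to each other on chromosome 12, Acot7 lies on chromosome 4, and Acot12 and Acot13 lie on chromosome 13. RefSeq promoter windows (assembly GRCm38.p6, 250 bases before to 50 after the gene start) matched 6 of the 7 genes, all but Acot13. The windows of the 5 genes that rose are shown because these genes moved together on fasting. They are written 5′ to 3′ on the plus strand, which is the strand of all 5 genes. Capitals mark the stretch that best matches AGGTCANAGGTCA on either strand, the direct repeat bound by PPARα with its partner RXR, counted over its 12 fixed letters. Where stretches tied, as in Acot1, only the first found is marked, with the plus strand searched before the minus strand. The windows lie at chr12:84009252-84009551 (Acot1), chr12:83987611-83987910 (Acot2), chr12:84051894-84052193 (Acot3), chr12:84038129-84038428 (Acot4) and chr13:91741271-91741570 (Acot12). Acot3 has a second, overlapping window at chr12:84051901-84052200 with the same best match, which is not shown.
Acot1: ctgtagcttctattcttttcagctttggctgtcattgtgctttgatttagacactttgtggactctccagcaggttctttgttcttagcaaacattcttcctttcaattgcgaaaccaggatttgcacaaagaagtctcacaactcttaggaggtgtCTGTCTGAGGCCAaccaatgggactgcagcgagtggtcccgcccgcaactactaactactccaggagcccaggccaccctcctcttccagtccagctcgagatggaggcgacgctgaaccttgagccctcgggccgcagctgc
Acot2: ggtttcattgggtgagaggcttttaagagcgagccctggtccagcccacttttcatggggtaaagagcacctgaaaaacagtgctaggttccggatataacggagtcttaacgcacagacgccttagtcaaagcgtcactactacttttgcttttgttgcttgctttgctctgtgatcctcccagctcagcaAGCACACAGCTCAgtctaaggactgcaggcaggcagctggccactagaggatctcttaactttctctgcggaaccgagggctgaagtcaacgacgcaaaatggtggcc
Acot3: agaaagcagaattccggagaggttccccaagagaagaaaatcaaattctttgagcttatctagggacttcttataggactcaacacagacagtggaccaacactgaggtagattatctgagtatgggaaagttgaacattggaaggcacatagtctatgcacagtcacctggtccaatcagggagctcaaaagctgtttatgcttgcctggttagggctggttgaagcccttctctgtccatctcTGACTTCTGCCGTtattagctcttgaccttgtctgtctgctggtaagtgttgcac
Acot4: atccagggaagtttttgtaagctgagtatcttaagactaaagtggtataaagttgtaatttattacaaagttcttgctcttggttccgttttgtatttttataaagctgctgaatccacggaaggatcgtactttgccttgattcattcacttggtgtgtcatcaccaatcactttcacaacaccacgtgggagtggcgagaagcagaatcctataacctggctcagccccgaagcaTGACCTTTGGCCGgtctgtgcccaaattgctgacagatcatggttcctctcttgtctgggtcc
Acot12: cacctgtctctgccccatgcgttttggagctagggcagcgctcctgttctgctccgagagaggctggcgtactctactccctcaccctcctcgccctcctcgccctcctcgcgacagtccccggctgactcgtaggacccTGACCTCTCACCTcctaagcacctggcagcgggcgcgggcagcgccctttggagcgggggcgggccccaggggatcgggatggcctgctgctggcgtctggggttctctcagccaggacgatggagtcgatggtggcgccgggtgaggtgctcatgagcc
The closest match was in Acot12, with 11 of the 12 letters on the minus strand, a count reached by 0.554% of all 32851 promoter windows. Acot4 matched 10 letters, a count that 3.86% of all windows reached, and Acot2 and Acot3 matched 9, which 24.6% reached. Acot1 matched 8, as did Acot7, whose window is not shown, and 79.8% of all windows reached 8. The full motif stood in 0.0396% of windows and in none of these 6. The motif was picked after the sequences had been seen, and a match or its lack is a description of these letters, not of binding.

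The arrays carried liver RNA, and their labels held for the targeted gene. Vnn1 (probe set 10362138) lay between 3.67 and 4.26 on all KO arrays, against 6.71 to 11.47 on all WT arrays (log2 RMA intensity, where 1 unit is a 2-fold change). The mean of 9 measured hepatocyte markers lay between 12.75 and 12.89 on every array, and all 9 had means above the median of all genes, 5.77. Array medians lay between 5.19 and 5.29, and across genes the correlation of arrays within a group was 0.989 to 0.996. The array fasted WT 4 stood apart by its pancreas markers, whose mean was 8.85 there and at most 4.74 on any other array, with 7 of 7 measured markers highest there. Its adipocyte markers averaged 6.20, against at most 5.88 elsewhere. The array fed KO 4 had the highest acute phase mean, 11.62, with 6 of 9 markers highest there, and fed WT 4 had the highest macrophage mean, 8.96, with 8 of 10 markers highest there. In bulk liver, fewer cells of a type and less RNA per cell cannot be told apart. Precision is limited by the 4 arrays of each group.

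Fasting raised 5 of the 7 thioesterases in KO liver, led by Acot1 and Acot2. Acot1 rose 18.0-fold, Acot2 17.6-fold, Acot3 11.6-fold, Acot4 4.53-fold and Acot12 1.65-fold, while Acot7 and Acot13 did not pass the test. A gene was called where limma's p, adjusted by Benjamini-Hochberg over all 18820 genes, lay below 0.05. Of all genes, 9.42% were called in this comparison (4.53% higher and 4.89% lower), and 0.574% were called and at least 2-fold higher, as Acot1, Acot2, Acot3 and Acot4 were. Ordered by the size of the rise among the 18820 genes, Acot1 held rank 3, Acot2 rank 4, Acot3 rank 5, Acot4 rank 22 and Acot12 rank 257.

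Fasting raised the same 5 genes in WT liver, by smaller values. Acot1 rose 6.92-fold, Acot3 6.37-fold, Acot2 4.78-fold, Acot4 2.69-fold and Acot12 1.43-fold, and Acot7 and Acot13 again did not pass. Of all genes, 7.61% were called (3.34% higher and 4.27% lower), and 0.43% were called and at least 2-fold higher. By the size of the rise, Acot1 held rank 4, Acot3 rank 9, Acot2 rank 11, Acot4 rank 49 and Acot12 rank 406. Called higher in both genotypes were 2.05% of all genes. In WT liver 629 genes were called higher and 803 lower, against 1014 higher and 542 lower after each array was centred on its median, and the 5 thioesterases were higher in both. Without fasted WT 4, 880 genes were called in WT liver instead of 1432, and the 5 thioesterases kept their calls. All 5 also kept their calls in both genotypes without fasted WT 4 and fed KO 4 together.

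**Figure D1:**
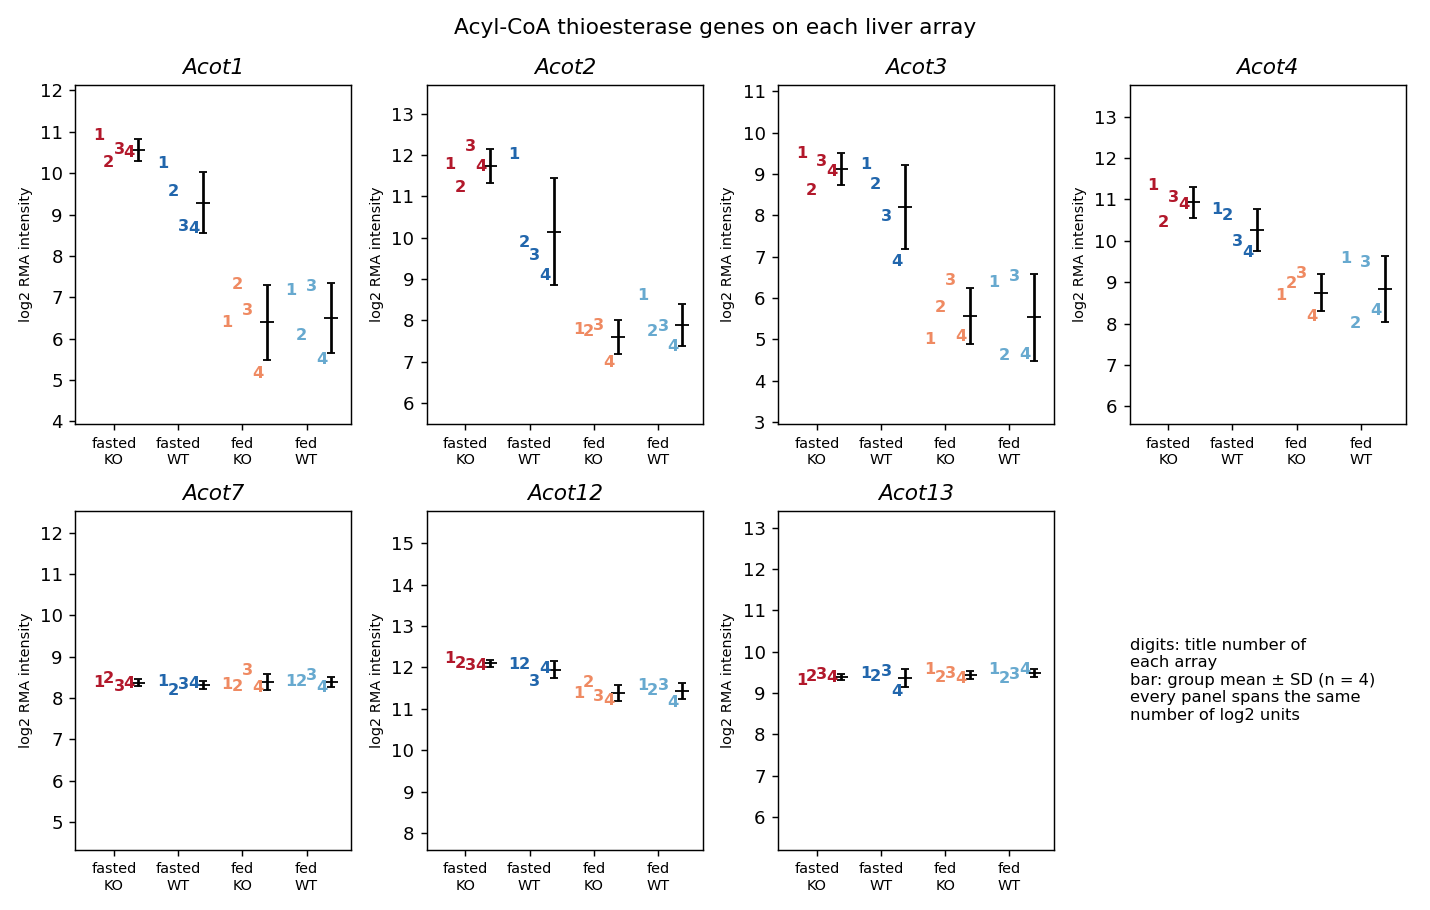
Level of each of the 7 thioesterase genes on every array (vertical axis, log2 RMA intensity; each digit is 1 array, named by its title number), with the group mean ± SD (n = 4) as a bar, for fasted KO, fasted WT, fed KO and fed WT liver. Acot1, Acot2, Acot3, Acot4 and Acot12 have all fasted arrays above all fed arrays of the same genotype, and Acot7 and Acot13 overlap; all panels span the same number of log2 units.

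Acot1 encodes the cytosolic enzyme for long acyl chains. Its level was 10.90, 10.25, 10.56 and 10.51 in fasted KO liver, 10.22, 9.55, 8.70 and 8.67 in fasted WT liver, 6.40, 7.31, 6.68 and 5.17 in fed KO liver and 7.15, 6.07, 7.26 and 5.51 in fed WT liver (log2 RMA intensity, arrays 1 to 4 of each group). The 4 fasted KO arrays were the highest of all 16, the fasted WT arrays came next without overlap, and the 2 fed groups overlapped. The group means were 10.56 ± 0.27, 9.29 ± 0.75, 6.39 ± 0.90 and 6.50 ± 0.85 in the same order of groups (SD, n = 4 each). The log2 difference of fasted minus fed was 4.17 (SE 0.44, limma adjusted p = 2.17e-05) in KO liver and 2.79 (SE 0.44, limma adjusted p = 0.00111) in WT liver.

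Acot2 encodes the mitochondrial enzyme, a near copy of Acot1, so their separate levels are uncertain where probes could bind both transcripts. Its level was 11.77, 11.22, 12.21 and 11.73 in fasted KO liver, 12.02, 9.89, 9.58 and 9.10 in fasted WT liver, 7.78, 7.74, 7.88 and 6.98 in fed KO liver and 8.60, 7.74, 7.85 and 7.38 in fed WT liver. One fasted WT array, number 1, lay among the fasted KO arrays, and the other fasted WT arrays lay below all of these and above every fed array. The means were 11.73 ± 0.40, 10.15 ± 1.29, 7.60 ± 0.41 and 7.89 ± 0.51 in the same order of groups (SD, n = 4 each). Fasted minus fed was 4.14 on the log2 scale (SE 0.45, limma adjusted p = 2.72e-05) in KO liver and 2.26 (SE 0.45, limma adjusted p = 0.00567) in WT liver. Without fasted WT 1 the WT difference was 1.63 (limma adjusted p = 0.00285).

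Acot3 encodes a peroxisomal enzyme for long acyl chains. Its level was 9.49, 8.59, 9.29 and 9.05 in fasted KO liver, 9.23, 8.73, 7.98 and 6.89 in fasted WT liver, 4.999, 5.77, 6.43 and 5.07 in fed KO liver and 6.38, 4.61, 6.51 and 4.64 in fed WT liver. Both fasted groups lay above every fed array and overlapped each other, and 4 fed arrays lay below their own array medians, where arrays give little signal over background. The means were 9.11 ± 0.39, 8.21 ± 1.02, 5.57 ± 0.67 and 5.54 ± 1.05 in the same order of groups (SD, n = 4 each). Fasted minus fed was 3.54 on the log2 scale (SE 0.50, limma adjusted p = 2.45e-04) in KO liver and 2.67 (SE 0.50, limma adjusted p = 0.00347) in WT liver.

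Acot4 encodes a peroxisomal enzyme that in mice splits the CoA esters of dicarboxylic acids such as succinate. Its level was 11.34, 10.43, 11.06 and 10.88 in fasted KO liver, 10.77, 10.61, 9.98 and 9.71 in fasted WT liver, 8.67, 8.96, 9.20 and 8.17 in fed KO liver and 9.56, 8.00, 9.48 and 8.31 in fed WT liver. The fasted arrays again lay above all fed arrays, with fasted WT 4 and fed WT 1 only a little apart. The means were 10.93 ± 0.38, 10.27 ± 0.50, 8.75 ± 0.45 and 8.84 ± 0.80 in the same order of groups (SD, n = 4 each). Fasted minus fed was 2.18 on the log2 scale (SE 0.34, limma adjusted p = 5.44e-04) in KO liver and 1.43 (SE 0.34, limma adjusted p = 0.0151) in WT liver. The WT call was lost without fed WT 4 (limma adjusted p = 0.0530) and in a fit of only the groups compared (limma adjusted p = 0.0599).

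Acot12 encodes a cytosolic enzyme of liver that splits acetyl-CoA. Its level was 12.22, 12.09, 12.04 and 12.05 in fasted KO liver, 12.07, 12.08, 11.65 and 11.98 in fasted WT liver, 11.37, 11.64, 11.31 and 11.19 in fed KO liver and 11.57, 11.44, 11.55 and 11.16 in fed WT liver. Within each genotype all fasted arrays were higher than all fed arrays, and the fasted groups overlapped each other. The means were 12.10 ± 0.083, 11.94 ± 0.20, 11.38 ± 0.19 and 11.43 ± 0.19 in the same order of groups (SD, n = 4 each). Fasted minus fed was 0.72 on the log2 scale (SE 0.12, limma adjusted p = 7.40e-04) in KO liver and 0.51 (SE 0.12, limma adjusted p = 0.0115) in WT liver.

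Acot7, the cytosolic enzyme known best from brain, showed no called difference on fasting. It ranged from 8.27 to 8.47 in fasted KO liver, 8.19 to 8.41 in fasted WT liver, 8.26 to 8.68 in fed KO liver and 8.25 to 8.55 in fed WT liver, so that all groups overlapped. Fasted minus fed was -0.02 in KO liver (95% interval -0.22 to 0.18, limma adjusted p = 0.933) and -0.08 in WT liver (95% interval -0.28 to 0.12, limma adjusted p = 0.686). Acot13, also known as Them2, is a small enzyme for long acyl chains found at mitochondria. It ranged from 9.30 to 9.45 in fasted KO liver, 9.05 to 9.51 in fasted WT liver, 9.35 to 9.57 in fed KO liver and 9.36 to 9.57 in fed WT liver. Fasted minus fed was -0.06 in KO liver (95% interval -0.26 to 0.15, limma adjusted p = 0.797) and -0.12 in WT liver (95% interval -0.33 to 0.08, limma adjusted p = 0.509). The lowest Acot13 array of all, at 9.05, was fasted WT 4, the array with pancreas markers. These intervals leave out, in both genotypes, a difference of the size seen for Acot12.

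Fasted and fed arrays did not overlap for 5 of the 7 genes in KO liver and for the same 5 in WT liver, and in both cases the fasted arrays were the higher ones. Of all genes, 8.89% had every fasted array above every fed array in KO liver and 6.02% in WT liver. The median log2 difference of the 7 genes was 2.18 in KO liver and 1.43 in WT liver, beside 0.020 and 0.011 over all genes in the same order. Of the acute phase genes, 3 of 9 were called lower in fasted KO and 1 of 9 in fasted WT liver, beside 4.89% and 4.27% of all genes. Their mean overlapped between fasted and fed liver in both genotypes and ranged from 8.48 to 9.27 in fasted KO, 8.74 to 9.17 in fasted WT, 9.25 to 11.62 in fed KO and 8.97 to 10.41 in fed WT liver. Of the macrophage markers, 1 of 10 was called lower in fasted KO and 2 of 10 in fasted WT liver, and their means overlapped between all groups. Of the stellate cell markers, 2 of 10 were called lower on fasting in each genotype. Their mean ranged from 7.93 to 8.03 in fasted KO liver, below 8.07 to 8.23 in fed KO liver, and from 7.92 to 8.17 in fasted WT liver, overlapping 8.13 to 8.40 in fed WT liver. Among hepatocyte markers, none was called in KO liver and 2 of 9 were called higher in fasted WT liver. Called higher were 4.53% of all genes in KO and 3.34% in WT liver. In fasted KO liver 1 of 10 endothelial markers was called higher and 1 of 7 lymphocyte markers lower, with none called in WT liver. In fasted WT liver 1 of 7 adipocyte markers was called higher, with none called in KO liver. The cholangiocyte, pancreas and skeletal muscle lists held no called gene. The part of these genes in the thioesterase differences was not tested.

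**Figure D2:**
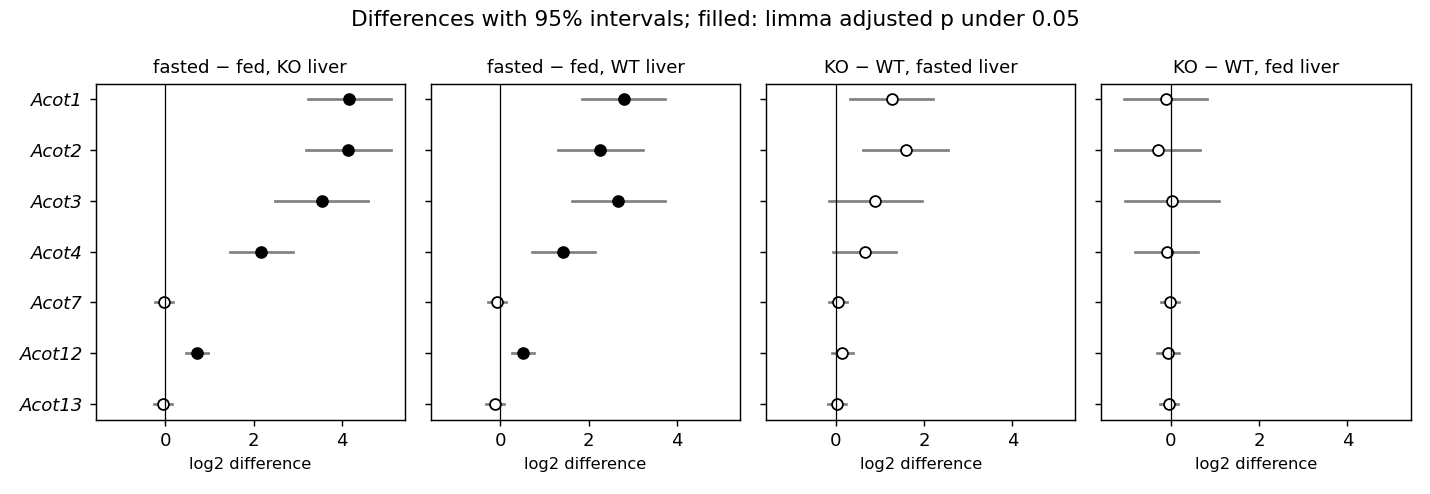
Log2 difference of each thioesterase gene (horizontal axis) with its 95% interval in 4 comparisons of liver groups, fasted minus fed in KO and in WT and KO minus WT in fasted and in fed liver. Filled points have a limma adjusted p below 0.05 over all genes: 5 genes in each fasting comparison and none in the genotype comparisons.

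Between fasted KO and fasted WT liver the 7 genes differed most in Acot2 and Acot1, and none passed the test over all genes. Of all genes, 0.0159% were called in this comparison and 5.49% had an unadjusted p below 0.05, 3.19% with a higher level in KO. The Acot2 difference of fasted KO minus fasted WT was 1.59 (SE 0.45, 95% interval 0.63 to 2.55, 3.004-fold, limma unadjusted p = 0.00288, adjusted p = 0.842). It was the only 1 of the 7 genes to gain a call here under any setting: without fasted WT 1, whose level of 12.02 lay among the fasted KO arrays, the difference was 2.21 and passed (limma adjusted p = 0.00922), and over all settings tried the adjusted p of Acot2 ranged from 0.00922 to 0.99992. By the size of the difference, Acot2 held rank 3 of all genes and Acot1 rank 6.

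Acot1 differed between fasted KO and fasted WT liver by 1.27 on the log2 scale (SE 0.44, 95% interval 0.33 to 2.21, 2.41-fold, limma unadjusted p = 0.0112, adjusted p = 0.867). Its fasted KO arrays all lay above its fasted WT arrays, which was so for 1.65% of all genes. The Acot3 difference was 0.90 (95% interval -0.16 to 1.96) and that of Acot4 was 0.66 (95% interval -0.05 to 1.38), with overlapping arrays. Acot12 differed by 0.16, Acot7 by 0.05 and Acot13 by 0.02. All 7 differences lay above 0, as did 50.5% of those of all genes, and that of Acot13 fell to -0.0063 after median centring and to -0.082 without fasted WT 4. The WT arrays spread more widely than the KO arrays: the SD of the fasted arrays was 0.27 in KO and 0.75 in WT liver for Acot1, 0.40 and 1.29 for Acot2, 0.39 and 1.02 for Acot3, and 0.38 and 0.50 for Acot4. In Acot1, Acot2, Acot3 and Acot4 alike, fasted WT 1 was the highest and fasted WT 4, the array with pancreas markers, the lowest of its group, and fasted KO 2 was the lowest of its group. Without fasted WT 4 the difference was 1.06 for Acot1, 1.24 for Acot2, 0.46 for Acot3 and 0.48 for Acot4, none of them called.

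In fed liver the 7 genes gave small differences between genotypes and none was called. Of all genes, 0.00531% were called, 5.76% had an unadjusted p below 0.05 and 47.9% had a difference above 0. The KO minus WT difference was -0.29 for Acot2 (95% interval -1.25 to 0.67), -0.11 for Acot1 (-1.05 to 0.83), -0.09 for Acot4 (-0.80 to 0.63) and 0.03 for Acot3 (-1.02 to 1.09). The intervals were narrower for Acot12 at -0.05 (-0.30 to 0.19), Acot13 at -0.04 (-0.25 to 0.16) and Acot7 at -0.01 (-0.21 to 0.19). The sign of the difference turned under at least 1 setting for Acot1, Acot3, Acot4, Acot7 and Acot12. The array fed KO 4, which had the highest acute phase mean, was the lowest of its group for Acot1, Acot2, Acot4, Acot7, Acot12 and Acot13.

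Whether fasting raised the genes more in KO than in WT liver was tested as the difference of the 2 fasting responses, and none of the 7 genes passed. No gene at all was called by limma (0% of 18820), 4.91% had an unadjusted p below 0.05, and 2.89% had one with the larger response in KO. The extra log2 rise in KO liver was 1.88 for Acot2 (95% interval 0.52 to 3.24, limma unadjusted p = 0.00962, adjusted p = 0.948) and 1.38 for Acot1 (0.05 to 2.71, limma unadjusted p = 0.0431, adjusted p = 0.948). It was 0.87 for Acot3 (-0.63 to 2.36), 0.75 for Acot4 (-0.26 to 1.76), 0.21 for Acot12, 0.07 for Acot13 and 0.06 for Acot7. Without fasted WT 1 the value for Acot2 was 2.51 and was still not called (limma adjusted p = 0.173). With any 1 array left out the value ranged from 0.43 to 1.21 for Acot3, lowest without fasted WT 4 and highest without fasted WT 1. Without fasted WT 4 and fed KO 4 together it was 0.76 for Acot1, 1.33 for Acot2, 0.27 for Acot3 and 0.37 for Acot4. All 7 values lay above 0, as did 52.4% of those of all genes, but that of Acot13 was -0.0370 without fasted WT 4. This comparison uses the same fasted arrays as the comparison of genotypes in fasted liver.

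The array profiles of Acot1, Acot2 and Acot3 came closest to each other. Likeness was the root mean square of the log2 differences over the 16 arrays after each gene was centred on its mean, and a smaller value is a closer profile. Acot1 lay closest to Acot3 at 0.481 and to Acot2 at 0.516, beside its own root mean square of 1.91 about its mean. Next came Pdk4, a kinase that shuts pyruvate dehydrogenase, at 0.600, Cidec, a lipid droplet protein, at 0.744, and Cyp4a14, a fatty acid omega-hydroxylase, at 0.828. Acot2 lay at 0.594 from Acot3, 0.680 from Pdk4, 0.790 from Cidec and 0.846 from Ehhadh, a peroxisomal enzyme of fatty acid oxidation. Acot3 was followed, after Acot1, Acot2 and Pdk4 (0.712), by Acot4 at 0.729 and by the carnitine transporter gene Slc22a5 at 0.813. Acot4 had a smaller swing, 1.05 about its mean, and its closest genes were none of the other members but Slc22a5 at 0.349, the peroxisomal thiolase gene Acaa1b at 0.392, the fatty acid transport gene Slc27a1 at 0.405, Pex11a, a peroxisome division gene, at 0.422 and Enc1 at 0.424. All of these values share the same 16 arrays and the contrast of fasting with feeding, and they are given as a description. Acot1, Acot2 and Acot3 are near copies, and the part of probes that could bind more than 1 of their transcripts was not tested.

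On chromosome 12 the genes on either side of the thioesterase cluster did not pass the test on fasting. In chromosome order the cluster runs Acot2, Acot1, Acot4, Acot3, Acot5 and Acot6. The 5 nearest measured genes on one side (Zfyve1, Rbm25, Papln, Numb and Riox1) and the 5 on the other (Dnal1, Pnma1, Mideas, Ptgr2 and Zfp410) had log2 differences of fasted minus fed between -0.33 and 0.20 in both genotypes, and none was called. The number of flanking genes was picked with the values already known. Within the cluster, Acot5 differed by 0.41 in KO (limma adjusted p = 0.159) and 0.18 in WT liver (limma adjusted p = 0.609). It encodes a peroxisomal enzyme for medium chains, and its level lay at 3.04 to 4.19 on all arrays, below every array median. Acot6, a peroxisomal enzyme for branched chains, rose 1.67-fold in WT liver (log2 difference 0.74, SE 0.14, limma adjusted p = 0.00441) and differed by 0.42 in KO liver (limma adjusted p = 0.0829). Its arrays lay between 5.44 and 5.77 in fasted KO, 5.26 and 5.71 in fasted WT, 4.85 and 5.38 in fed KO and 4.26 and 4.85 in fed WT liver, close to the array medians.

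**Figure D3:**
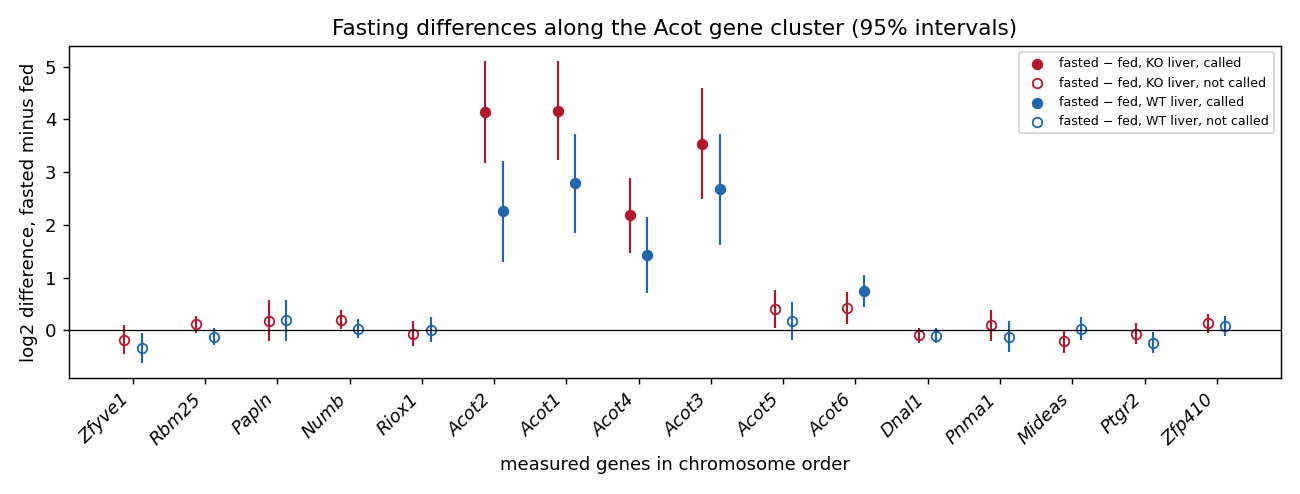
Log2 difference of fasted minus fed liver (vertical axis, with 95% intervals) for the measured genes around the Acot cluster in chromosome order (horizontal axis), in KO and WT liver. Filled points, called by limma, are confined among the genes drawn to Acot2, Acot1, Acot4 and Acot3 in KO liver and to these and Acot6 in WT liver.

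Of the thioesterase genes outside the 7, 1 was called on fasting in KO and 1 in WT liver. Of all genes, 9.42% were called in KO and 7.61% in WT liver. Of the 9 listed, 7 were measured, all but Acot8 and Acot10. In KO liver none was called higher and 1 lower, and in WT liver 1 was called higher and none lower, with median log2 differences of 0.19 in KO and 0.18 in WT liver. The lower one was Acot11, an enzyme known from brown fat, at 5.21, 5.05, 5.09 and 5.29 in fasted KO liver, against 6.51, 5.53, 6.48 and 5.96 in fed KO liver. Its log2 difference of fasted minus fed was -0.96 in KO (SE 0.24, limma adjusted p = 0.0172) and 0.08 in WT liver (limma adjusted p = 0.894). The difference of these responses was -1.04 (limma unadjusted p = 0.00736, adjusted p = 0.948). The Acot11 means were 5.16 in fasted KO, 5.34 in fasted WT, 6.12 in fed KO and 5.26 in fed WT liver. Its arrays lay between 4.87 and 5.78 in fasted WT and 4.58 and 5.74 in fed WT liver. These levels and those in fasted KO liver were close to the array medians, 5.19 to 5.29, where arrays give little signal over background. In fed liver KO minus WT was 0.86 for Acot11 (limma unadjusted p = 0.00251, adjusted p = 0.788). Acot9, Them4 and Them5, which encode mitochondrial enzymes, differed by 0.19, 0.32 and -0.24 in KO liver and by 0.05, 0.19 and -0.15 in WT liver. Them5 lay at 3.31 to 4.31 on all arrays, below every array median. Baat, the enzyme that joins bile acids to taurine or glycine, differed by 0.06 in KO and 0.24 in WT liver. None of these 4 genes was called in either genotype.

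The acyl-CoA synthetases, which run the opposite reaction, split in both directions on fasting. In KO liver 3 of 16 measured genes were called higher and 3 lower, beside 4.53% and 4.89% of all genes. In WT liver 1 was called higher and 3 lower, beside 3.34% and 4.27% of all genes. The medians were 0.03 in KO and -0.04 in WT liver. Slc27a1, which encodes a fatty acid transport protein with synthetase activity, rose 4.95-fold in KO and 3.26-fold in WT liver (limma adjusted p = 9.43e-06 and 3.03e-04). Acsf3, a mitochondrial malonyl-CoA synthetase, rose 1.56-fold and Slc27a2, for very long chains, 1.22-fold in KO liver, with log2 differences of 0.24 each in WT liver that were not called. Acss2, the cytosolic acetyl-CoA synthetase and so the opposite of Acot12, fell by 1.55 on the log2 scale in KO and by 1.29 in WT liver (limma adjusted p = 0.00101 and 0.00553). The medium-chain genes Acsm1 and Acsm5 fell by 0.74 and 0.61 in KO liver and by 0.64 and 0.60 in WT liver.

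Of the genes of coenzyme A synthesis and breakdown, 4 of 15 were called higher and 1 lower in KO liver, beside 4.53% and 4.89% of all genes. In WT liver 2 were called higher and 1 lower, beside 3.34% and 4.27% of all genes (medians of the list 0.12 in both). Vnn3, a pantetheinase gene related to Vnn1, rose 2.31-fold in KO and 1.79-fold in WT liver. Dcakd, which encodes a protein with a dephospho-CoA kinase domain, rose 1.76-fold in KO and 1.35-fold in WT liver. Slc25a42, the carrier of coenzyme A into mitochondria, rose 1.54-fold in KO liver and differed by 0.47 on the log2 scale in WT liver (limma adjusted p = 0.0732). Nudt7, the peroxisomal enzyme that cuts coenzyme A, fell by 1.80 in KO and by 1.79 in WT liver on the log2 scale (limma adjusted p = 1.17e-06 and 3.79e-06).

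Peroxisomal genes of beta oxidation and acyl transfer, which share their compartment with Acot3 and Acot4, moved mainly upward. In KO liver 10 of 18 were called higher and 1 lower, beside 4.53% and 4.89% of all genes. In WT liver 9 were called higher and 1 lower, beside 3.34% and 4.27% of all genes. The list medians were 0.45 in KO and 0.41 in WT liver. Ehhadh rose 5.84-fold in KO and 3.34-fold in WT liver, and Crat, the carnitine acetyltransferase, 3.51-fold and 2.58-fold. Acaa1b rose 2.79-fold in KO liver and differed by 0.91 on the log2 scale in WT liver (limma adjusted p = 0.0629). Ehhadh, Crat and Acaa1b also stand on the list of PPARα targets described next, so the lists are not separate. The gene called lower was Acox3, an oxidase for branched chains, which fell by 0.38 in KO and by 0.33 in WT liver.

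Of 26 measured PPARα targets outside the 7 thioesterases, 21 were called higher and none lower in KO liver, and 21 higher and none lower in WT liver. Of all genes, 4.53% were called higher in KO and 3.34% in WT liver. The targets had medians of 1.03 in KO and 0.79 in WT liver. Their largest rises by fold in KO liver were those of Cidec, 19.9-fold in KO and 6.84-fold in WT liver, Cyp4a14, 10.9-fold and 6.66-fold, and Pdk4, 10.8-fold and 4.58-fold. The rises of Acot1, Acot2 and Acot3 in KO liver lie in the range of these 3 genes. Between genotypes the list held 1 called gene, Vnn1 itself, lower in KO in both fasted and fed liver. In fasted liver 25 of the 26 differences of KO minus WT lay above 0 (median 0.25), beside 50.5% of those of all genes. In fed liver 12 of the 26 did, beside 47.9% of all genes. The difference of the fasting responses lay above 0 for 23 of the 26, beside 52.4% of all genes. The lists are described by counts beside the shares of all genes, without a test of each list.

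**Figure D4:**
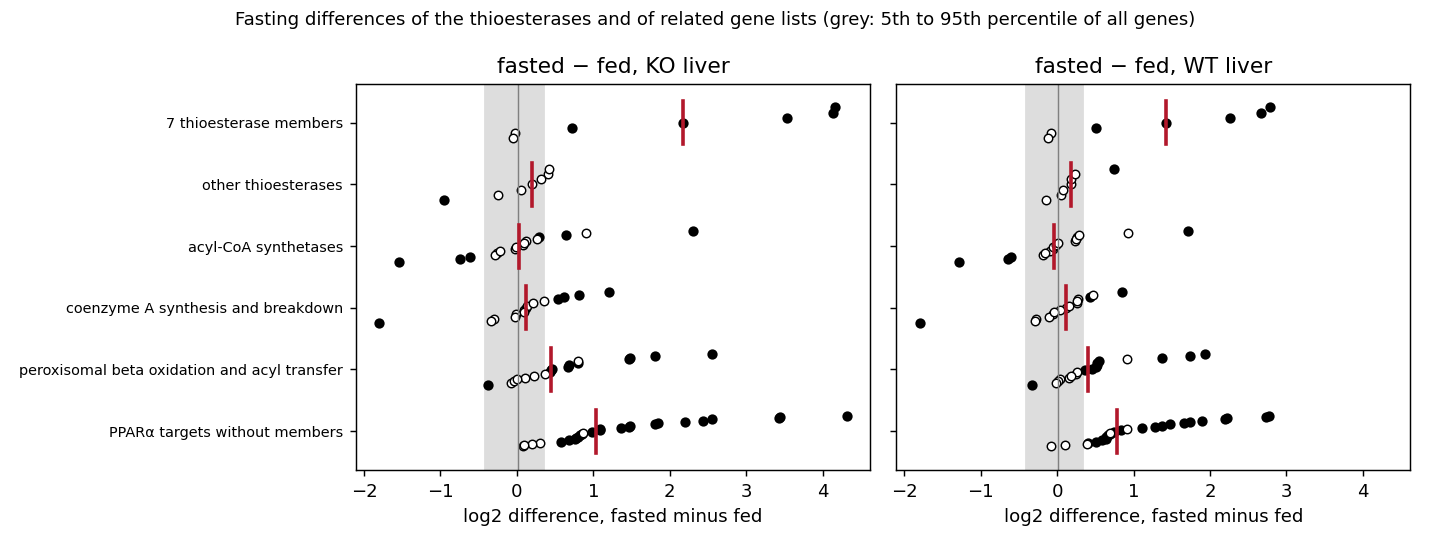
Log2 difference of fasted minus fed liver (horizontal axis) in KO and WT mice for the 7 thioesterases and 5 related gene lists, 1 point per gene, filled where called by limma, with the list median as a red bar and the 5th to 95th percentile of all genes in grey. The medians of the 7 thioesterases (2.18 in KO, 1.43 in WT liver) and of the PPARα targets (1.03 in KO, 0.79 in WT liver) lie right of the grey band. That of the peroxisomal genes (0.45 in KO, 0.41 in WT liver) does so too. Ehhadh, Crat and Acaa1b are drawn in both the peroxisomal and the PPARα list.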

How the data were processed

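Liver RNA was labelled with biotin through a whole-transcript kit, per the labels' protocols, and hybridised to 16 arrays. The authors deposited log2 intensities from RMA, per the submitters' processing notes; neither its version nor the array's genome build is given in the sources used here. Of 35556 probe sets, 21218 carried 1 gene symbol, and the brightest of each gene gave 18820 genes. A mean per group was fitted to all 16 arrays with limma 3.58.1 in R 4.3.3 (12 residual and 4.66 prior degrees of freedom), two-sided, with Benjamini-Hochberg adjustment over all genes, called below 0.05. The procedure was tested on simulated data with independent noise for each gene. That simulation holds no effect shared by many genes of an array, such as the pancreas markers on fasted WT 4.

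The members and lists were chosen with earlier results of these data known. Named were the 7 members, Vnn1, all measured genes of the list of other thioesterases, up to 3 called genes per direction of each other list by size in KO fasting, and the 5 genes most like each member called at 2-fold or more in both fasting comparisons. The flanking genes lie outside this rule. Title numbers did not pair arrays, since same-numbered arrays correlated at -0.220 to 0.209 (24 pairs). Alternatives were median centring, quantile normalisation, a filter at the 30th percentile, the mean of probe sets, a robust and trended prior, array weights, only the groups compared, a replicate block, a fit without 3 arrays whose description ends in 2 (meaning not known), leaving out fasted WT 4 together with fed KO 4, a threshold of 0.01, and leaving out each array.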

Additional observations from a re-analysis of the deposited data

Results flagged for a closer look

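The level of Acot2 on the array fed KO 4 was 6.98, apart from the other 3 fed KO arrays at 7.74 to 7.88. Its gap to the nearest of them was 0.847 of the group's whole range, above Dixon's critical value for 4 samples. It was the only such value among 28 groups of arrays tested (7 genes in 4 groups), and chance gives about 1 in 20. The fed KO 4 array also had the highest acute phase mean, 11.62, and the part of this in the Acot2 level was not tested.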

How the results depend on the processing

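The 5 called thioesterases kept their calls in KO fasting under every setting tried, and in WT fasting under all but 3: the threshold of 0.01 left 3, and Acot4 lost its call without fed WT 4 and in the fit of only the groups compared. Leaving out single arrays gave 4 to 5 called thioesterases in WT fasting and 0 to 1 between genotypes in fasted liver. Gene counts over single left-out arrays were 1216 to 1861 for KO fasting, 880 to 1608 for WT fasting (lowest without fasted WT 4), 1 to 5 for KO against WT in fasted liver (5 without fasted KO 2 or fasted WT 1, 1 without fasted WT 2), 1 to 3 in fed liver, and 0 to 1 for the difference of the fasting responses (1 without fasted KO 3). KO fasting had 964 called genes without the 3 arrays whose description ends in 2 and 879 at the threshold of 0.01. WT fasting had 829 with only the groups compared and 576 at 0.01. KO against WT in fasted liver had 1 without these 3 arrays, without fasted WT 4 and fed KO 4, and at 0.01. In fed liver it had 2 with median centring, a robust and trended prior or array weights, and 0 with only the groups compared or without the 3 arrays. The cause was not tested.

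Differences that changed sign were small and never called. Median centring turned Acot7 to 0.0041 in KO fasting and 0.0072 between genotypes in fed liver, and Acot13 to -0.0063 between genotypes in fasted liver. Without the 3 arrays the fed difference was 0.156 for Acot1, -0.113 for Acot3, 0.033 for Acot7 and 0.0128 for Acot12. Without fasted WT 4 and fed KO 4 it was 0.299 for Acot1, 0.106 for Acot4, 0.033 for Acot7 and 0.0094 for Acot12, while Acot13 stood at -0.082 between genotypes in fasted liver and at -0.067 in the difference of the fasting responses. Array weights turned Acot3 to -0.126 in fed liver. Over single left-out arrays, Acot7 ranged from -0.064 to 0.075 in KO fasting and Acot13 from -0.082 to 0.074 between genotypes in fasted liver and from -0.037 to 0.119 in the difference of the responses. In fed liver the ranges were -0.438 to 0.299 for Acot1, -0.278 to 0.356 for Acot3, -0.368 to 0.153 for Acot4, -0.106 to 0.039 for Acot7 and -0.142 to 0.0094 for Acot12.

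With the title number as a replicate block, 1658 genes were called in KO fasting, 1324 in WT fasting and 2 between genotypes in fasted liver, and the calls of the 7 thioesterases did not change. Each array correlated best with its own number in 3 of 16 cases. The difference of the responses has no separate fit of only the groups compared, since it uses all 4 groups. Dim levels, as for Acot3 in fed liver and Acot1 on fed KO 4, limit the folds there.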
